A study of Mus musculus with 17 samples.

Results

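Monocyte and macrophage markers, 10 genes in all, were followed across mouse leukemias made with Myc and Bcl2 and across healthy progenitors: Adgre1, Cd68, Cd14, Lyz2, Mrc1, Msr1, Mpeg1, C1qa, C1qb and Fcgr1. They were chosen by symbol with earlier results of these data known, so their counts beside those of all genes are descriptions. Each is represented by the probe set, among those annotated to that symbol alone, with the highest mean over the 17 arrays. They are 10 of the 17097 genes with such a probe set and 10 of the 11629 genes tested. Tests covered genes whose highest group mean was above 3.83, which is the median over all arrays and probe sets. C1qb passed only through the LSK-derived group, and C1qa and Fcgr1 only through the LSK-derived and GMP-derived groups.

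Values are log2 expression values from Affymetrix mouse arrays in 5 groups from C57/Bl6 mice with a wildtype genotype. The 3 leukemia groups hold splenocytes of recipients that had been given progenitors transformed with Myc and Bcl2: LSK cells (marrow cells that lack lineage markers and carry Sca1 and c-kit, a stem cell-rich fraction, n = 3), DN2 cells (an early T-cell progenitor stage of the thymus, n = 5) or GMP (granulocyte-macrophage progenitors, n = 5). Recipients were 4 to 8 weeks old and had received 4.5 to 6 Gy of whole-body irradiation. The other groups are healthy thymic DN2 cells (n = 2) and healthy marrow GMP (n = 2), whose labels name no Myc or Bcl2. The labels describe the leukemia cells as sorted for CD11b and Gr1 and against CD3, CD4 and CD8, and name no donor marker in that sort. An irradiated host keeps macrophages and other blood cells of its own, and donor and host RNA cannot be told apart on these arrays. The sources used here do not give how the transgenes were driven, the age of the healthy animals or whether replicates are separate mice, so p-values measure only the spread between these samples.

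Array medians ran from 3.80 to 3.86, and values near them are background, which compresses any difference from a group lying there. Several arrays stand apart. All 5 DN2-derived arrays had a mean over 7 T-cell markers of 10.31 to 10.77, against 4.22 to 4.91 in the LSK-derived and GMP-derived arrays, and Itgam, which encodes CD11b, was 3.24 to 3.47 in DN2-derived arrays 2, 4 and 5, which goes against the myeloid sort on their label. It was 7.17 and 7.38 in DN2-derived arrays 1 and 3. DN2-derived array 1 also had the highest value of its group for 8 of the 10 markers. LSK-derived arrays 2 and 3 had Mycn at 4.91 and 4.22, close to the 3.96 to 4.58 of healthy cells. LSK-derived array 1 had 12.82, and all DN2-derived and GMP-derived arrays had 11.58 to 13.15. Calls and counts of markers and lists below that changed without DN2-derived array 1 or without LSK-derived arrays 2 and 3 are given both ways. DN2-derived array 1 stands apart partly through the markers themselves, so p-values of markers in fits without it are descriptions only. With the latter left out, LSK-derived array 1 has no spread of its own and takes that of the other groups. Fewer genes were then called over all genes too, so list calls lost in that fit are not a result about the lists.

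Monocytes leave the marrow and become macrophages or related phagocytes in tissues, and macrophages of the spleen clear old red cells, microbes and debris. The markers stand for different parts of that work. Adgre1 encodes an adhesion-type receptor long used to stain mouse macrophages. Cd14 is the co-receptor that passes bacterial lipopolysaccharide to Toll-like receptor 4, Mrc1 the mannose receptor, Msr1 a class A scavenger receptor and Fcgr1 the high-affinity receptor for IgG. Cd68 is a lysosomal membrane glycoprotein, Lyz2 a lysozyme shared by granulocytes, monocytes and macrophages, and Mpeg1 the pore-forming protein perforin-2. C1qa and C1qb encode chains of complement C1q, which macrophages make in tissues. In bulk samples such as these, fewer cells of a type and less RNA per cell cannot be told apart.

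The markers had different patterns. Adgre1, Cd68, Cd14, Lyz2 and Mpeg1 were well above background in every LSK-derived and GMP-derived array and lower in the DN2-derived group. Fcgr1 and Msr1 were raised in LSK-derived arrays 2 and 3. Mrc1, C1qa and C1qb stayed near background in most arrays.

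**Figure D1:**
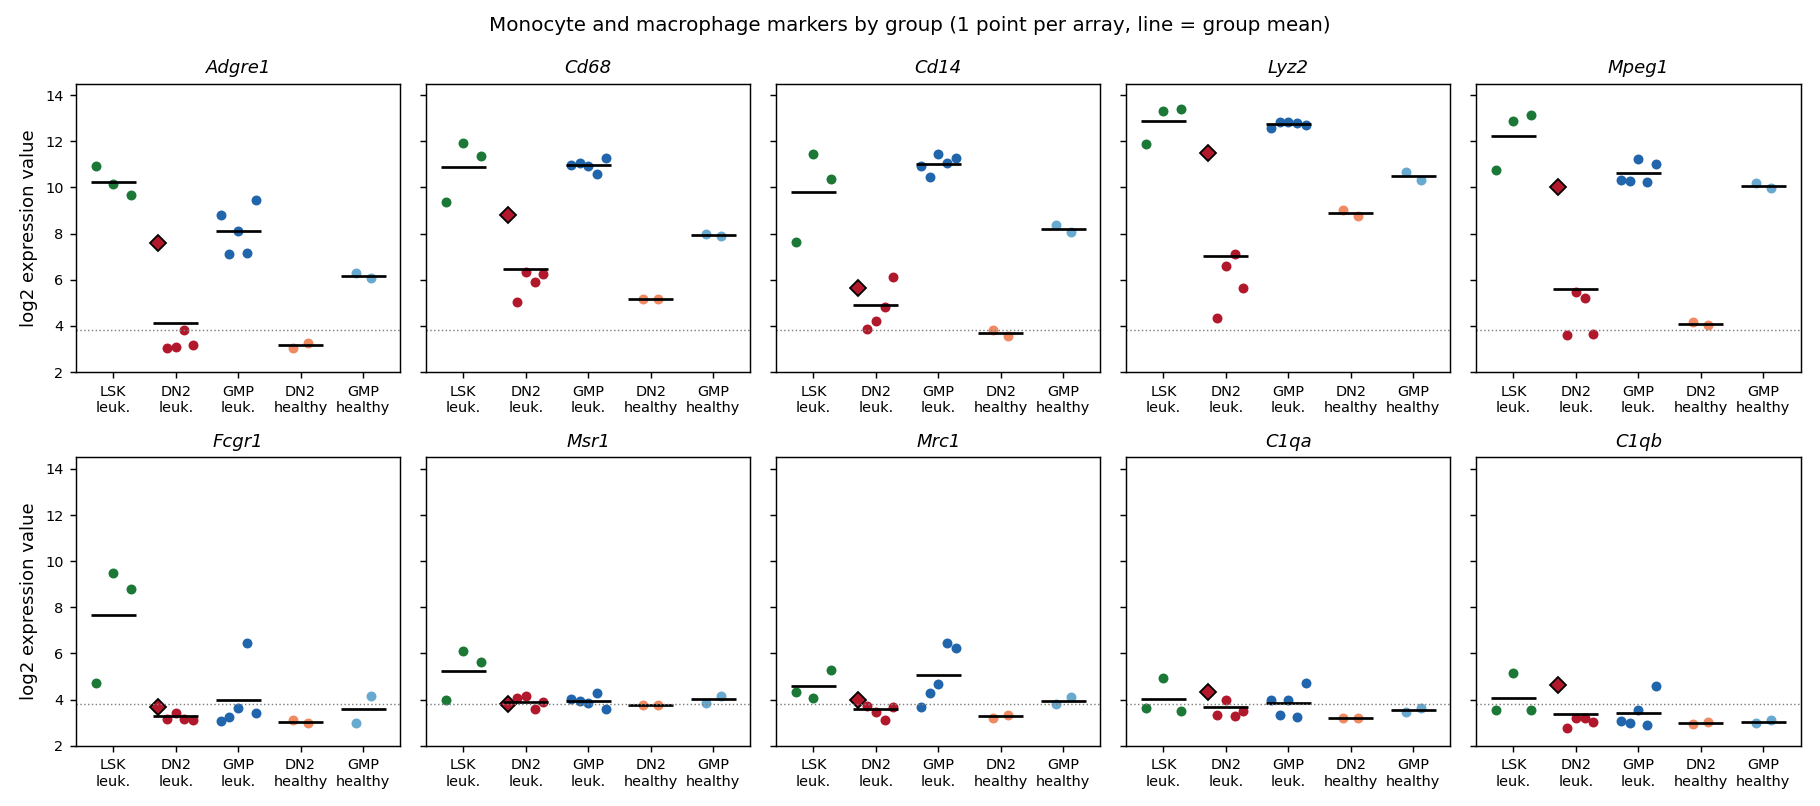
Log2 expression value (vertical axis) of each of the 10 markers on each of the 17 arrays, grouped as 3 LSK-derived, 5 DN2-derived and 5 GMP-derived leukemias, 2 healthy DN2 and 2 healthy GMP samples, with bars for group means, DN2-derived array 1 as a diamond and the median of all values as a dotted line. DN2-derived array 1 stands above the rest of its group for Adgre1 (7.60 against 3.02 to 3.80), and 2 of 3 LSK-derived arrays stand apart for Fcgr1 (9.47 and 8.81 against 4.70).

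Adgre1 was 10.91, 10.13 and 9.67 in the 3 LSK-derived arrays and 8.82, 7.11, 8.10, 7.17 and 9.44 in the 5 GMP-derived arrays. In the DN2-derived arrays it was 7.60, 3.02, 3.07, 3.80 and 3.17, and in healthy cells 3.06 and 3.24 (DN2) and 6.28 and 6.07 (GMP). Every DN2-derived array but the first lay near background, as did healthy DN2 cells. The group means ran from LSK-derived (10.24 ± 0.63, SD, n = 3) through GMP-derived (8.13 ± 1.02, n = 5), healthy GMP (6.17 ± 0.15, n = 2) and DN2-derived (4.13 ± 1.96, n = 5) to healthy DN2 (3.15 ± 0.13, n = 2). Neighbours in that order did not overlap except around the DN2-derived group, whose array 1 lay above healthy GMP. Without that array the DN2-derived mean was 3.27 ± 0.36 (n = 4).

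Cd14 was 10.92, 10.44, 11.46, 11.05 and 11.26 in the GMP-derived arrays and 7.63, 11.45 and 10.35 in the LSK-derived arrays. In the DN2-derived arrays it was 5.63, 3.85, 4.21, 4.82 and 6.12, and here array 5 and not array 1 was the highest. Healthy GMP had 8.37 and 8.07 and healthy DN2 cells 3.84 and 3.56. The groups thus ran from GMP-derived (11.03 ± 0.39, n = 5) to healthy DN2 (3.70 ± 0.20, n = 2), and LSK-derived array 1 lay below healthy GMP.

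Cd68, the lysosomal glycoprotein, was 10.97, 11.07, 10.92, 10.57 and 11.26 in the GMP-derived arrays and 9.35, 11.94 and 11.38 in the LSK-derived arrays, which overlapped. It was 8.83, 5.04, 6.32, 5.90 and 6.26 in the DN2-derived arrays, 7.97 and 7.89 in healthy GMP and 5.14 and 5.15 in healthy DN2 cells. DN2-derived array 1 was above healthy GMP and the other 4 were below it, with a mean of 5.88 ± 0.59 (n = 4) without array 1.

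Mpeg1 was 10.74, 12.86 and 13.12 in the LSK-derived arrays and 10.32, 10.26, 11.23, 10.24 and 11.03 in the GMP-derived arrays, close to the 10.19 and 9.98 of healthy GMP. In the DN2-derived arrays it was 10.01, 3.60, 5.48, 5.21 and 3.66, and in healthy DN2 cells 4.16 and 4.04. DN2-derived array 1 reached the level of healthy GMP, and the other 4 had a mean of 4.49 ± 1.00 (n = 4).

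Lyz2 had another order. It was 11.90, 13.31 and 13.39 in the LSK-derived, 12.57, 12.83, 12.86, 12.78 and 12.69 in the GMP-derived and 10.66 and 10.32 in the healthy GMP arrays. Healthy DN2 cells had 9.03 and 8.77, above the 4.33, 6.59, 7.11 and 5.63 of DN2-derived arrays 2 to 5 and below the 11.48 of array 1. Lyz2 was the only one of the 10 markers for which the mean of the DN2-derived group (7.03 ± 2.70, n = 5) lay below that of its healthy counterpart (8.90 ± 0.19, n = 2), and without array 1 the mean was 5.92 ± 1.23 (n = 4). The probe set used carries the x_at suffix, which the manufacturer gives to sets that can also match other transcripts, and Lyz1, its near-identical neighbour, was 3.06 to 4.80 over the 17 arrays by its own probe set.

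Fcgr1 was 4.70, 9.47 and 8.81 in the LSK-derived arrays. Among the other 14 arrays it was above 4.16 in 1 only, GMP-derived array 4 at 6.47, and the other GMP-derived arrays had 3.07, 3.27, 3.63 and 3.42. A second Fcgr1 probe set gave 4.24, 6.60 and 5.86 in the LSK-derived arrays and 3.32 to 4.07 in all others, with 4.07 in GMP-derived array 4. Both probe sets thus put LSK-derived arrays 2 and 3 apart, and the second showed less of the rise in GMP-derived array 4.

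Msr1 was 3.99, 6.12 and 5.62 in the LSK-derived arrays and 3.59 to 4.28 in the other 14. Of its 3 further probe sets, 1 read 7.09 and 7.21 and another 7.23 and 6.85 in LSK-derived arrays 2 and 3, against at most 3.87 elsewhere. The fourth read 3.69 and 4.27 there and at most 3.12 elsewhere. All 4 probe sets placed the same 2 arrays above the rest.

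Mrc1 was 3.66, 4.29, 4.69, 6.46 and 6.23 in the GMP-derived arrays, 4.33, 4.09 and 5.30 in the LSK-derived arrays and 3.13 to 3.99 in the DN2-derived arrays. Healthy DN2 cells had 3.21 and 3.34 and healthy GMP 3.81 and 4.10. GMP-derived arrays 4 and 5 were the only ones above 5.30, so the GMP-derived range overlapped both other leukemia groups, while the DN2-derived arrays ended just below the LSK-derived ones.

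C1qa ran from 3.22 to 4.94 and C1qb from 2.76 to 5.14 over the 17 arrays. C1qb was 3.53, 5.14 and 3.53 in the LSK-derived, 4.63, 2.76, 3.20, 3.20 and 3.04 in the DN2-derived and 3.07, 2.99, 3.56, 2.91 and 4.60 in the GMP-derived arrays. Both chains were highest of their group in LSK-derived array 2 (C1qa 4.94), DN2-derived array 1 (C1qa 4.34) and GMP-derived array 5 (C1qa 4.70), and in the healthy groups neither exceeded 3.62.

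RefSeq promoter windows of assembly GRCm38.p6 were at hand for 6 of the markers and are shown because Spi1, whose product PU.1 binds purine-rich sites in many macrophage genes, differed between the same groups. The motif GAGGAA was searched on both strands (TTCCTC on the other) in the 250 bases before each gene's start, and it occurred in 23.25% of 32851 such windows. Capitals mark the motif, and each sequence reads 5′ to 3′ on the gene's own strand. The Cd68 window is chr11:69666171-69666420 (minus strand), the Fcgr1 window chr3:96293970-96294219 (minus strand), the Mrc1 window chr2:14229164-14229413 (plus strand) and the C1qb window chr4:136886201-136886450 (minus strand).
Cd68: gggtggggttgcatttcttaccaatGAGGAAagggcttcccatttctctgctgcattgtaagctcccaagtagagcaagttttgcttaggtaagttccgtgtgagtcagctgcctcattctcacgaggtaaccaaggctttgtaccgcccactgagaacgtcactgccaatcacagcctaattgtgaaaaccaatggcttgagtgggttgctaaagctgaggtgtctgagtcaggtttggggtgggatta
Fcgr1: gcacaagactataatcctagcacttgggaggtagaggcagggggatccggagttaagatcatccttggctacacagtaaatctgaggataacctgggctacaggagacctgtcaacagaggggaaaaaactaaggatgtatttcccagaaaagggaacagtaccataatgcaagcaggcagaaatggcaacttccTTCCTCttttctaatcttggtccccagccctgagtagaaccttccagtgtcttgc
Mrc1: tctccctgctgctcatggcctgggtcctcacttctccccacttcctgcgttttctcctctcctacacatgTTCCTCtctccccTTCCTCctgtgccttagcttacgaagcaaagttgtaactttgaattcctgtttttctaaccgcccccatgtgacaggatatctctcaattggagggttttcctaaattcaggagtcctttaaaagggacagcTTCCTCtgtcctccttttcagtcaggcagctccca
C1qb: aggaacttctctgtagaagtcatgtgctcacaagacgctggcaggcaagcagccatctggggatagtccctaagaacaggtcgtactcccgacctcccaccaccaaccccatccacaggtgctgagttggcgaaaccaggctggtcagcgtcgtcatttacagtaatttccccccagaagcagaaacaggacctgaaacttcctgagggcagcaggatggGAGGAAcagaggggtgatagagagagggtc
The motif lay 225 bases before the start in Cd68, 55 in Fcgr1, 30 in C1qb and at 180, 167 and 35 in Mrc1, while the Lyz2 and Mpeg1 windows did not hold these letters. A match is a run of letters, and whether PU.1 binds there in these cells was not measured. Any link between the motif and the marker differences was not tested.

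DN2-derived leukemias were set against GMP-derived leukemias to ask how far leukemias of thymic and of myeloid origin differ in these markers. Of the 10 markers, 6 were lower in the DN2-derived group and 0 higher, among all genes of which 18.8% were called lower and 21% higher (limma, adjusted p under 0.05). The log2 difference of Cd14 was -6.10 ± 0.58 (SE, n = 5 and 5, adjusted p = 8.93e-07) and that of Cd68 -4.49 ± 0.58 (adjusted p = 2.01e-05). Lyz2 differed by -5.72 ± 0.93 (adjusted p = 1.69e-04) and Mpeg1 by -5.03 ± 0.94 (adjusted p = 5.77e-04). For these 4 every DN2-derived array lay below every GMP-derived array. The share of all genes without overlap was not taken, in this or any other comparison. Adgre1 differed by -3.99 ± 0.75 (adjusted p = 6.30e-04), with an overlap through DN2-derived array 1 alone, and by -4.86 without it (adjusted p = 8.37e-07). The smaller p follows from leaving out the highest Adgre1 value of the DN2-derived group.

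Mrc1 differed by -1.47 ± 0.46 (adjusted p = 0.0186) with overlapping groups, and without GMP-derived array 5 by -1.18 (adjusted p = 0.0519), which ends the call. Msr1, C1qa, C1qb and Fcgr1 were not called (adjusted p 0.55 to 0.937), and all 4 lay near background in most arrays of both groups. The median difference of the 10 markers was -2.73, beside 0.03 over all genes tested. All 8 neutrophil markers were lower as well, and all 7 T-cell markers higher. Their part in the marker differences was not tested.

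Genes that work with these receptors were followed as lists. All 5 Fc receptors and adaptors were lower in the DN2-derived group, such as the low-affinity IgG receptor Fcgr3 by -3.85 ± 0.28 (adjusted p = 4.94e-08), Fcgr4 by -4.31 ± 1.12 (adjusted p = 0.00662) and the signalling adaptor Tyrobp by -4.69 ± 1.19 (adjusted p = 0.00549). Of 6 genes of the lipopolysaccharide receptor group 3 were lower: Tlr4, the receptor that Cd14 serves, by -4.04 ± 0.51 (adjusted p = 1.70e-05), Tlr2 by -5.61 ± 0.66 (adjusted p = 7.99e-06) and the adaptor Myd88, at most 8.77 in the DN2-derived and up to 9.80 in the GMP-derived arrays (adjusted p = 0.00371). Tlr4 was 7.00 to 7.82 in the GMP-derived and 2.83 to 3.86 in the DN2-derived arrays, the latter near background.

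Of 8 monocyte genes tested, 3 were lower, among them the inhibitory receptor Cd300lf by -5.76 ± 0.50 (adjusted p = 3.33e-07). Of 7 complement and scavenger receptors 3 were lower, such as the anaphylatoxin receptor C5ar1 by -5.12 ± 0.58 (adjusted p = 5.28e-06) and the lipoprotein receptor Scarb1 by -2.06 ± 0.30 (adjusted p = 6.77e-05). Of 5 genes of red pulp macrophages 4 were lower, namely the iron exporter Slc40a1 by -6.71 ± 0.45 (adjusted p = 1.83e-08), Treml4 by -3.59 ± 1.01 (adjusted p = 0.0106), the adhesion molecule Vcam1 by -3.09 ± 0.72 (adjusted p = 0.00298), and the heme oxygenase Hmox1, named here after its value was seen, by -2.24 ± 0.48 (adjusted p = 0.00177). Slc40a1 was also 8.67 and 8.98 in healthy GMP, so it is not a gene of macrophages alone.

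Lysosomal genes were split, and of 12 genes 7 were lower and 1 was higher in the DN2-derived group: the protease Ctsh differed by -5.52 ± 0.74 (adjusted p = 3.00e-05) and Ctsc, a protease also of granules, by 2.77 ± 0.84 (adjusted p = 0.0158). Ctsc was 9.99 to 11.06 in the DN2-derived arrays and 3.59, 8.93, 9.03, 8.69 and 8.36 in the GMP-derived arrays, of which array 1 stands far from the rest. Of 8 macrophage regulators 2 were lower and 1 higher, and Spi1 differed by -5.03 ± 0.43 (adjusted p = 3.06e-07). Without DN2-derived array 1, each of the 7 lists had the same count of called genes.

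**Figure D2:**
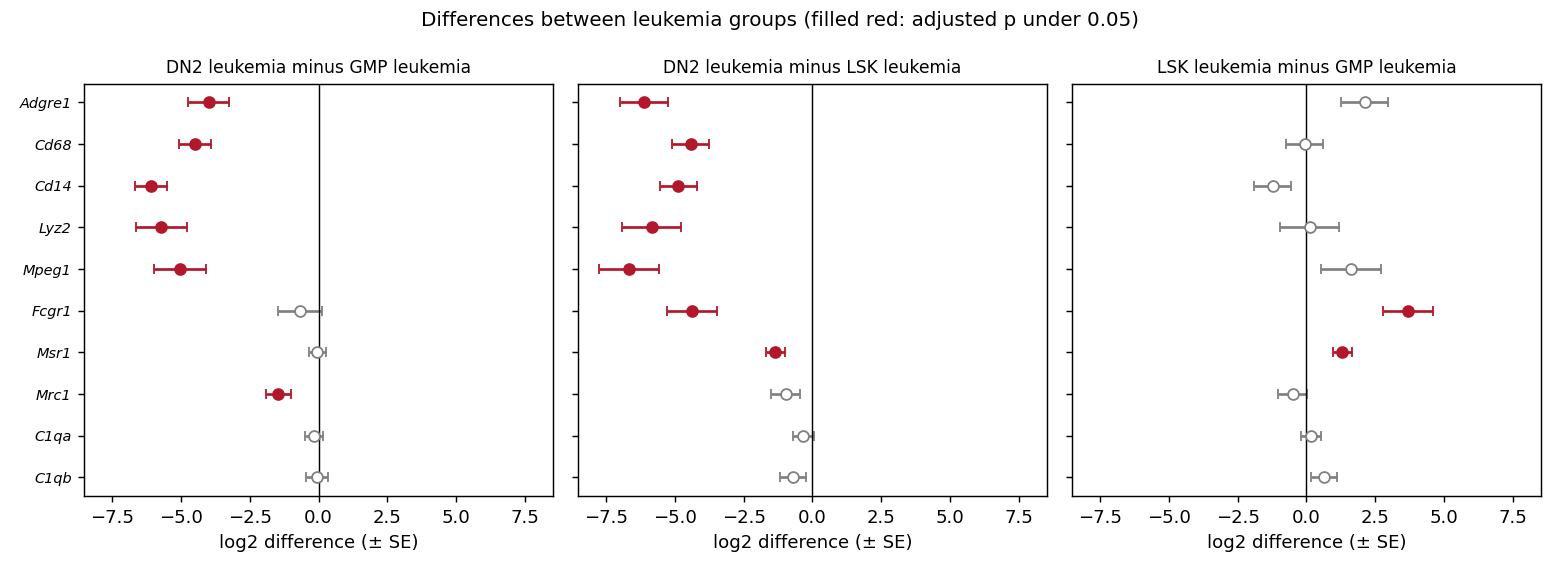
Log2 difference (horizontal axis, points) with its standard error (bars) of the 10 markers between the leukemia groups, from limma over all 17 arrays, with filled red points at an adjusted p under 0.05. In all, 6 markers were lower in DN2-derived than in GMP-derived leukemias, 7 lower in DN2-derived than in LSK-derived leukemias, and 2 higher in LSK-derived than in GMP-derived leukemias.

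Against the LSK-derived leukemias, 7 of the 10 markers were lower in the DN2-derived group and 0 higher, where 19.1% of all genes were called lower and 28.3% higher. The LSK-derived and GMP-derived comparisons share the 5 DN2-derived arrays. Mpeg1 differed by -6.65 ± 1.08 (SE, n = 5 and 3, adjusted p = 1.86e-04) and Adgre1 by -6.10 ± 0.87 (adjusted p = 6.20e-05). Lyz2 differed by -5.84 ± 1.07 (adjusted p = 4.71e-04), Cd14 by -4.88 ± 0.67 (adjusted p = 4.55e-05) and Cd68 by -4.42 ± 0.67 (adjusted p = 1.01e-04). No DN2-derived array reached an LSK-derived array for any of these 5, and the share of all genes for which this holds was not taken. The median difference of the markers was -4.39, beside 0.11 over all genes tested, and -2.05 without LSK-derived arrays 2 and 3. Without those arrays these 5 markers were still called (adjusted p 0.00324 to 0.0488), with Cd14 at -2.70 and Cd68 at -2.88.

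Fcgr1 differed by -4.36 ± 0.91 (adjusted p = 0.00128) without overlap and Msr1 by -1.34 ± 0.34 (adjusted p = 0.0049) with overlap. With LSK-derived arrays 2 and 3 left out, Fcgr1 differed by -1.40 (adjusted p = 0.297) and Msr1 by -0.09 (adjusted p = 0.841), so these calls rest on the 2 arrays with low Mycn. Mrc1, C1qa and C1qb were not called (adjusted p 0.145 to 0.496), but Mrc1, at -0.97, was called when only these 8 arrays were fitted (adjusted p = 0.0341).

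None of the 7 pathway lists held a gene called higher in the DN2-derived group. All 8 monocyte genes tested, all 5 Fc receptors and adaptors, all 6 genes of the lipopolysaccharide receptor group and 10 of 12 lysosomal genes were lower. So were 4 of 7 complement and scavenger receptors, 3 of 5 red pulp genes and 4 of 8 regulators. Without LSK-derived arrays 2 and 3, 2 of 8 monocyte genes, 1 of 5 Fc receptors and adaptors, 3 of 6 genes of the lipopolysaccharide receptor group, 5 of 12 lysosomal genes, 2 of 5 red pulp genes and 2 of 8 regulators were lower, and still 4 of 7 complement and scavenger receptors. In that fit, with array 1 as the only LSK-derived array, fewer genes were called lower over all genes too. The smaller list counts are thus not a result about the lists. Without DN2-derived array 1, the red pulp genes had 4 lower and the regulators 5. Of the other cell types, 5 of 8 dendritic cell markers (6 without DN2-derived array 1), 2 of 4 B-cell markers and all 8 neutrophil markers were lower too, and all 7 T-cell markers were higher. Without LSK-derived arrays 2 and 3 no dendritic cell or B-cell marker was called. Their part in the marker differences was not tested.

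Between LSK-derived and GMP-derived leukemias, 2 of the 10 markers were higher in the LSK-derived group and 0 lower, among all genes of which 10.3% were called higher and 16.5% lower. Fcgr1 differed by 3.69 ± 0.91 (SE, n = 3 and 5, adjusted p = 0.00803) and Msr1 by 1.30 ± 0.34 (adjusted p = 0.0111), both with overlapping groups. Both calls were lost without LSK-derived arrays 2 and 3 (Fcgr1 0.73, adjusted p = 0.693, and Msr1 0.05, adjusted p = 0.941) and when only these 8 arrays were fitted (adjusted p = 0.0733 and 0.0827). Leaving out LSK-derived array 2 alone also ended both (adjusted p = 0.0626 and 0.0848), and leaving out array 3 alone that of Msr1 (adjusted p = 0.0598).

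The other 8 markers were not called (adjusted p 0.0865 to 0.958). Adgre1 differed by 2.11 ± 0.87 without overlap (adjusted p = 0.0865). It was called when only the 8 arrays were fitted (adjusted p = 0.0469) and with a term for Y-linked genes (2.87, adjusted p = 0.0493). The Y-linked gene Eif2s3y was 8.93 to 9.90 in all 3 LSK-derived arrays, 10.05 in DN2-derived array 2, 9.89 in GMP-derived array 2 and at most 3.03 elsewhere. LSK origin and high Eif2s3y thus nearly coincide and cannot be told apart in comparisons with the LSK-derived group. The Y-linked term rests mainly on DN2-derived array 2 and GMP-derived array 2. Mpeg1 differed by 1.62 ± 1.08 (adjusted p = 0.296) and Cd14 by -1.22 ± 0.67 (adjusted p = 0.2). For Cd14 the LSK-derived arrays were themselves apart, and the difference was -3.40 (adjusted p = 0.00502) with array 1 as the only LSK-derived array and -2.04 (adjusted p = 0.0486) without array 2 alone, both of which make it a call. The first of these rests on 1 array without a spread of its own. The median difference of the markers was 0.41, beside -0.06 over all genes tested. It was 0.0027 without LSK-derived array 2 and -0.09 without arrays 2 and 3, so its direction rests on them.

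Of 8 other monocyte genes tested, 6 were higher in the LSK-derived group and 0 lower, such as the membrane proteins Ms4a6c by 5.46 ± 1.10 (adjusted p = 0.00243) and Ms4a6d by 5.15 ± 0.89 (adjusted p = 8.55e-04). Csf1r, the receptor for macrophage colony-stimulating factor, was 9.03, 10.60 and 9.71 in the LSK-derived and 5.64 to 6.74 in the GMP-derived arrays, a difference of 3.72 ± 0.44 (adjusted p = 5.38e-05), and was named after its value was seen. Csf1r, Ms4a6c and Ms4a6d did not overlap and were high in LSK-derived array 1 as well, unlike Fcgr1 and Msr1. Without LSK-derived arrays 2 and 3, Csf1r was the 1 monocyte gene still called (2.97, adjusted p = 0.00811), and Ms4a6c was 4.12 (adjusted p = 0.147) and Ms4a6d 3.98 (adjusted p = 0.0729).

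Of 7 complement and scavenger receptors 2 were higher and 1 lower in the LSK-derived group. The fatty acid receptor Cd36 was 7.24, 10.30 and 9.10 in the LSK-derived arrays, 3.10 to 3.64 in the GMP-derived arrays and 6.68 in DN2-derived array 1, with a difference of 5.46 ± 0.71 between LSK-derived and GMP-derived leukemias (adjusted p = 1.22e-04). Of 12 lysosomal genes 5 were higher, such as the proteases Lgmn by 3.73 ± 0.63 (adjusted p = 7.89e-04) and Ctsc by 3.63 ± 0.97 (adjusted p = 0.0123). Of 8 regulators 6 were higher, among them Zeb2 by 4.04 ± 0.86 (adjusted p = 0.00341) and Irf8 by 3.69 ± 1.20 (adjusted p = 0.0344), and 2 of 6 genes of the lipopolysaccharide receptor group. No Fc receptor or adaptor and no red pulp gene was called. The fit with array 1 as the only LSK-derived array called fewer genes over all genes too, so calls lost in it are not a result about the lists. Without LSK-derived arrays 2 and 3, Cd36 was still called (3.82, adjusted p = 0.0189), while Lgmn (2.72, adjusted p = 0.0793), Ctsc (2.22, adjusted p = 0.38), Zeb2 (3.45, adjusted p = 0.128) and Irf8 (1.75, adjusted p = 0.605) were not. The lysosomal genes then had 0 higher and 1 lower, the regulators 0 called, and the lipopolysaccharide receptor group 0 higher and 2 lower, Tlr4 by -2.58 (adjusted p = 4.58e-04) and Tlr2 by -2.82 (adjusted p = 0.0306).

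Dendritic cell markers were higher in 6 of 8 cases in the same comparison. The mean of that list was 6.06, 7.70 and 7.89 in the LSK-derived and 4.14 to 5.13 in the GMP-derived arrays. The list includes the MHC class II genes Cd74, H2-Aa, H2-Ab1 and H2-Eb1, and which cells carried them was not tested. Zbtb46, also of the list, was 3.59 to 3.90 in the LSK-derived and 3.73 to 4.09 in the GMP-derived arrays. Xcr1 was at most 3.15 in both groups. B-cell markers were higher in 2 of 4 cases, with a median difference of 1.74. Without LSK-derived arrays 2 and 3 no dendritic cell marker and 1 B-cell marker, Cd79b, was called. On LSK-derived array 1, H2-Aa (9.56), H2-Ab1 (8.07), H2-Eb1 (8.41), Cd74 (7.80) and Itgax (6.49) still lay above every GMP-derived array. Ciita, Flt3, Zbtb46 and Xcr1 did not. The part of the dendritic cell or the B-cell list in the marker differences was not tested.

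**Figure D3:**
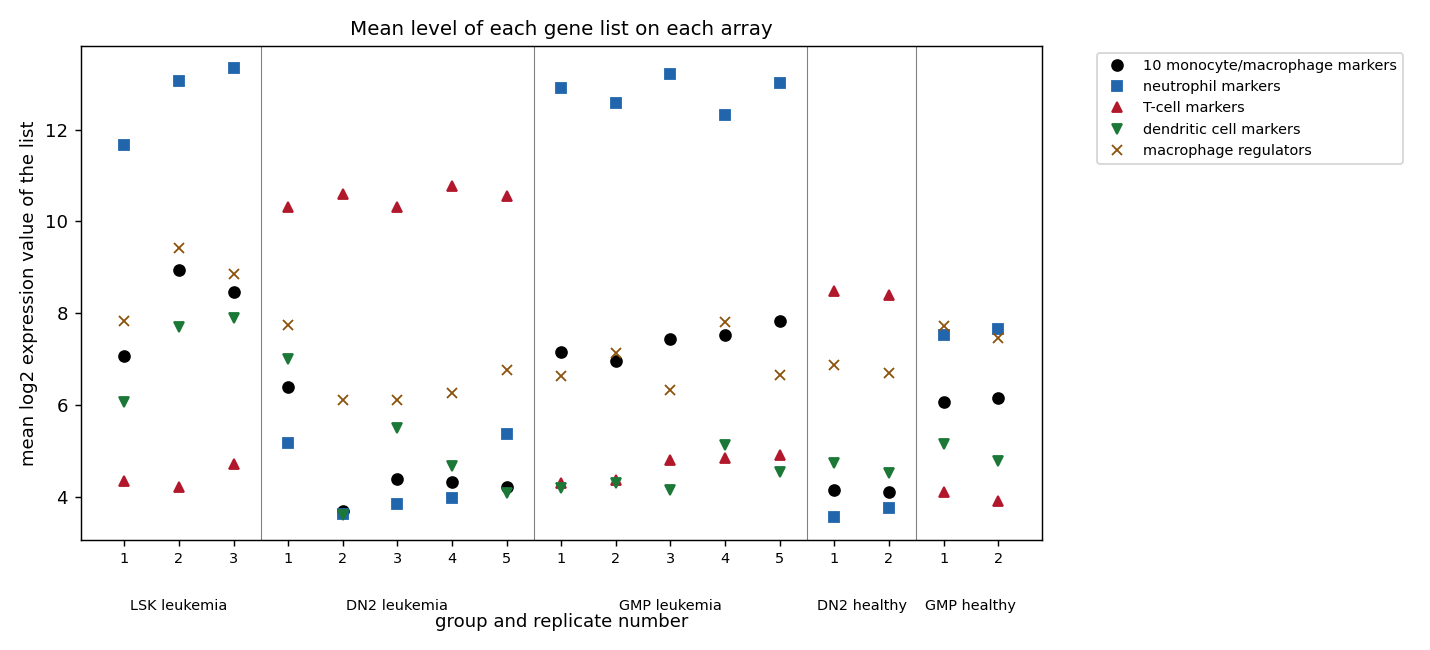
Mean log2 expression value (vertical axis) of the 10 monocyte and macrophage markers and of the neutrophil, T-cell, dendritic cell and regulator lists on each of the 17 arrays (horizontal axis, replicate number within each group). The marker mean was 6.40 in DN2-derived array 1 and 3.69 to 4.38 in the other 4, while the T-cell mean was 10.31 to 10.77 in all 5.

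DN2-derived array 1 had a mean of the 10 markers of 6.40, against 3.69 to 4.38 in arrays 2 to 5 of its group and 6.95 to 7.82 in the GMP-derived arrays. It was the highest array of the group for Adgre1, Cd68, Lyz2, Mpeg1, C1qa, C1qb, Fcgr1 and Mrc1, while Cd14 was highest in array 5 and Msr1 in array 3. The T-cell marker mean of array 1 was 10.31, beside 10.32 to 10.77 in the other 4.

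The lists moved with array 1 to different degrees. Its red pulp mean was 5.95 against 3.61 to 3.92 in arrays 2 to 5, its dendritic cell mean 7.00 against 3.61 to 5.49 and its regulator mean 7.74 against 6.11 to 6.76. Within the dendritic cell list, the MHC class II gene H2-Aa was 11.13 against 3.45 to 7.77. Zbtb46 was 3.84 against 3.38 to 3.79 and Xcr1 2.98 against 3.12 to 3.32. The monocyte list had 6.33 against 3.71 to 5.23 and the Fc receptor list 10.58 against 5.67 to 8.90. The neutrophil mean of array 1 was 5.17, below the 5.37 of array 5, and 3.62 to 3.97 in arrays 2 to 4. The erythroid mean was 6.29 against 4.56 to 5.64, and Hba-a1, a hemoglobin chain, was 13.06 against 8.09 to 12.31. F13a1, a monocyte gene, stayed at 3.07 in array 1, while Treml4 was 8.94 against 3.00 to 3.99 and Cd36 6.68 against 3.23 to 3.60. These genes were chosen after their values were seen.

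DN2-derived array 3, the other array of its group with raised Itgam, had a marker mean of 4.38, and its Adgre1 (3.07) and C1qb (3.20) were at background. Its Tyrobp was 11.58 and its Fcer1g 11.08, close to the 11.89 and 11.43 of array 1, and its Cx3cr1 was 7.87 against 8.25, genes chosen after their values were seen. With arrays 1 and 3 both left out, the same 5 markers and Mrc1 were called lower than in GMP-derived leukemias, Adgre1 by -4.79 (adjusted p = 6.05e-06) and Lyz2 by -7.06 (adjusted p = 1.83e-07).

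The 3 C1q chains and Spic, the transcription factor of red pulp macrophages, marked the same arrays in 3 groups. Spic was 4.61, 7.74 and 5.51 in the LSK-derived, 6.24, 3.82, 3.77, 3.72 and 3.82 in the DN2-derived and 3.68, 3.90, 4.02, 4.05 and 5.44 in the GMP-derived arrays, and 3.78 to 3.86 in healthy cells. C1qc, the third chain, was 5.01 in LSK-derived array 2, 4.51 in DN2-derived array 1 and 5.53 in GMP-derived array 5, each the highest of its group. Of the other red pulp genes, Treml4 and Hmox1 were also highest in these 3 arrays. Vcam1 and Slc40a1 were so only in DN2-derived array 1. Vcam1 was highest in LSK-derived array 1 (6.01, against 4.99 in array 2) and GMP-derived array 2 (10.21, against 6.24 in array 5), and Slc40a1 in LSK-derived array 3 (11.50) and GMP-derived array 3 (11.19). Over the 17 arrays Pearson's r was 0.896 between C1qa and C1qb, 0.926 between C1qb and Spic and 0.658 between C1qc and Spic, as a description of arrays that share groups. Timd4 and Vsig4, which mark resident macrophages, were at most 3.25 and 3.82 anywhere. Mertk was at most 3.92, but was also highest of its group in LSK-derived array 2 (3.37), DN2-derived array 1 (3.92) and GMP-derived array 5 (3.83). Of the same list, Cd163 was 5.72 and 5.67 in healthy DN2 cells and at most 4.36 elsewhere. Stab1 was 4.13 to 5.42 in the GMP-derived arrays and 5.68 and 5.66 in healthy GMP. The 5 stroma markers had means of 3.01 to 3.25.

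**Figure D4:**
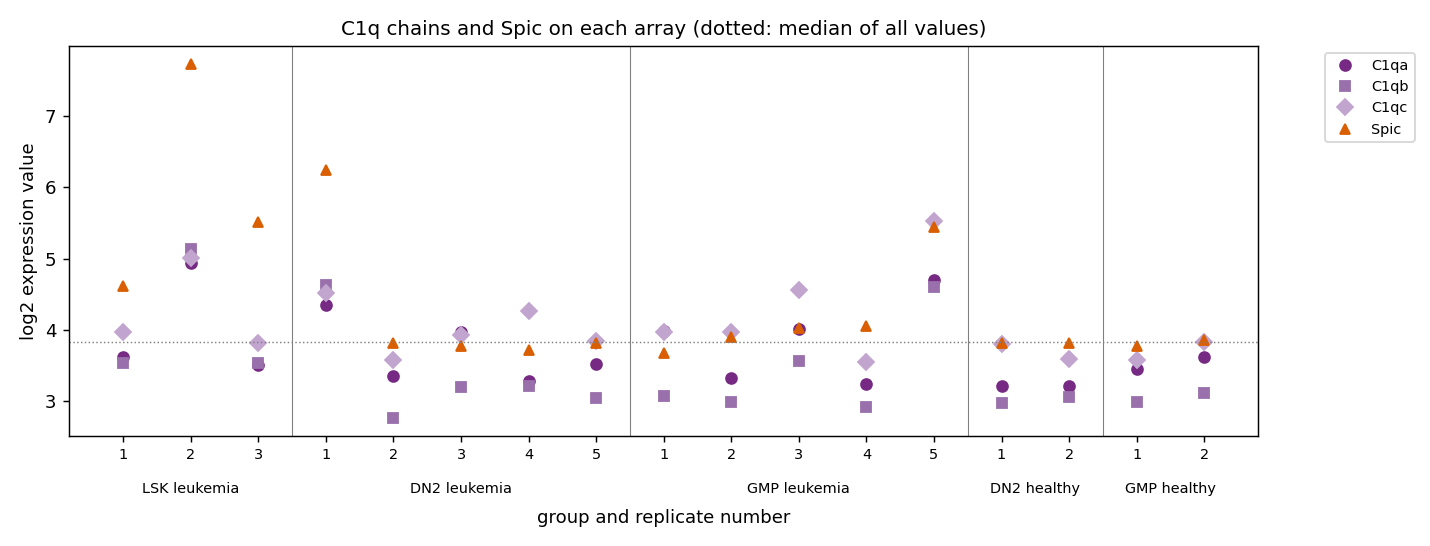
Log2 expression value (vertical axis) of C1qa, C1qb, C1qc and Spic on each of the 17 arrays (horizontal axis, replicate number within each group), with the median of all values as a dotted line. All 4 genes were highest of their leukemia group in LSK-derived array 2, DN2-derived array 1 and GMP-derived array 5, with Spic at 7.74, 6.24 and 5.44.

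DN2-derived leukemias were then set against healthy thymic DN2 cells. None of the 10 markers was called by limma, and 0 had an unadjusted p under 0.05, among all genes of which 9.48% were called higher and 13.7% lower (adjusted p of the markers 0.252 to 0.913). Lyz2 differed by -1.87 ± 1.22 (SE, n = 5 and 2, adjusted p = 0.318), and by -2.98 (adjusted p = 0.00251) without DN2-derived array 1, which makes it a call. That call follows from leaving out the highest Lyz2 value of the group. Mpeg1 differed by 1.49 ± 1.24 (adjusted p = 0.45), Cd68 by 1.32 ± 0.77 (adjusted p = 0.252) and Cd14 by 1.23 ± 0.77 (adjusted p = 0.294). Without DN2-derived array 1, Mpeg1 differed by 0.39 (adjusted p = 0.753) and Cd68 by 0.74 (adjusted p = 0.396). For Cd14 every leukemia array lay above both healthy arrays, by as little as 3.85 against 3.84. The median difference was 0.42, beside 0.01 over all genes tested, and 0.19 without DN2-derived array 1.

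In this comparison 3 of 12 lysosomal genes were higher and 1 lower, and 1 of 5 Fc receptors and adaptors was higher, Fcgr3 by 2.58 ± 0.37 (adjusted p = 1.32e-04). Of the other lists, monocyte genes had 0 of 8 called and red pulp genes 0 of 5, and single genes were lower among the complement and scavenger receptors, the lipopolysaccharide receptor group and the regulators. Without DN2-derived array 1, 2 complement and scavenger receptors were lower. The regulator was Spi1, at -2.17 ± 0.57 (adjusted p = 0.013). T-cell markers were higher for 5 of 7 and erythroid markers for 1 of 5, and 1 of 4 B-cell markers was lower.

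GMP-derived leukemias were compared with healthy GMP, and 2 of the 10 markers were higher in leukemia and 0 lower, among all genes of which 8.08% were called higher and 13.1% lower. Cd68 differed by 3.02 ± 0.77 (SE, n = 5 and 2, adjusted p = 0.0125) and Cd14 by 2.81 ± 0.77 (adjusted p = 0.0187), without overlap. With the replicate number as a block, Cd14 differed by 2.47 (adjusted p = 0.0813), which ends its call, though the numbers did not pair the samples. Neither call held without 1 of the healthy arrays (adjusted p 0.0953 and 0.106 without array 1, 0.109 and 0.155 without array 2), a fit in which the single healthy array left has no spread of its own and takes that of the other groups. Lyz2 differed by 2.25 ± 1.22 (adjusted p = 0.208), Adgre1 by 1.95 ± 1.00 (adjusted p = 0.18) and Mrc1 by 1.11 ± 0.60 (adjusted p = 0.208). Lyz2, Adgre1 and Mpeg1 did not overlap between leukemia and healthy cells, though Mpeg1, at 10.24 to 11.23 and 9.98 to 10.19, was high in both. Lyz2 was called when only these 7 arrays were fitted (adjusted p = 1.49e-04). The median difference of the markers was 0.82, beside -0.12 over all genes tested.

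The lists around the markers divided in this comparison. Higher in the GMP-derived leukemias were 2 of 5 red pulp genes and 3 of 12 lysosomal genes, such as the galectin Lgals3 by 6.45 ± 0.67 (adjusted p = 1.04e-05). Of 8 monocyte genes 1 was higher, Cd300lf by 5.52 ± 0.66 (adjusted p = 4.20e-05), and 2 were lower, F13a1 by -5.82 ± 1.66 (adjusted p = 0.0225) and Ms4a6c by -4.45 ± 1.26 (adjusted p = 0.0222). Among regulators 1 was higher and 2 lower, the latter Irf8 by -4.62 ± 1.38 (adjusted p = 0.028) and Cebpa by -3.35 ± 1.14 (adjusted p = 0.0495). Lgals3, F13a1 and Cebpa were named after their values were seen. Of 8 neutrophil markers 7 were higher, and their part in the marker differences was not tested.

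Healthy DN2 cells and healthy GMP differed in 2 of the 10 markers, both lower in DN2 cells, among all genes of which 5.42% were called lower and 5.78% higher. Mpeg1 differed by -5.98 ± 1.48 (SE, n = 2 and 2, adjusted p = 0.0159) and Cd14 by -4.52 ± 0.92 (adjusted p = 0.00428). The call of Mpeg1 was lost without any 1 of the 4 healthy arrays (adjusted p 0.0889 to 0.0967). Adgre1 differed by -3.02 ± 1.19 (adjusted p = 0.129), Cd68 by -2.79 ± 0.92 (adjusted p = 0.0672) and Lyz2 by -1.59 ± 1.46 (adjusted p = 0.592). These 3 had no overlap either, nor had C1qa, Mrc1 and Msr1, which lay near background. The share of all genes without overlap was not taken, so the lack of overlap is a description only. Adgre1, Cd68 and Lyz2 were called when only the 4 healthy arrays were fitted (adjusted p = 2.81e-05, 1.64e-05 and 7.05e-04), as was Mrc1, at -0.68 (adjusted p = 0.0101). In that fit the spread of the leukemia arrays does not enter. The median difference was -1.14, beside -0.06 over all genes tested.

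Whether the change from healthy to leukemia cells differs between DN2 and GMP origin was tested as an interaction. None of the 10 markers was called and 1 had an unadjusted p under 0.05, among all genes of which 6.39% were called higher and 6.28% lower (limma, adjusted p of the markers 0.146 to 0.991). Lyz2 differed by -4.12 ± 1.73 (adjusted p = 0.15), Cd68 by -1.70 ± 1.08 (adjusted p = 0.35) and Cd14 by -1.58 ± 1.09 (adjusted p = 0.39). Without DN2-derived array 1 the interaction of Lyz2 was -5.24 (limma, adjusted p = 7.30e-04). That array held the highest Lyz2 value of its group, so leaving it out widens the difference and narrows the spread. The interaction contains the difference from healthy DN2 cells, so the 2 calls of Lyz2 without array 1 are not separate results.

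The GMP-derived arrays differed among themselves in several genes of the markers and lists. Array 2 had F13a1 at 9.41 and array 4 was close to it, where the other 3 had 3.01 to 3.16, and Ms4a6c at 7.25 and 8.04 against 3.99 to 4.39. The same 2 arrays had less Adgre1 (7.11 and 7.17 against 8.10 to 9.44), Fcgr4 (7.16 and 7.90 against 9.86 to 10.56) and Treml4 (6.51 and 6.77 against 8.79 to 9.44). Cd14, Cd68 and Lyz2 did not divide them, with array 4 lowest for Cd68 and array 1 lowest for Lyz2. Cebpa (7.87 and 8.35 against 3.78 to 4.41) and Irf8 (6.69 and 8.11 against 3.46 to 4.14) divided the arrays as F13a1 did. In healthy GMP, F13a1 was 11.45 and 11.26, Ms4a6c 10.32 and 9.73, Cebpa 8.96 and 9.23, Irf8 10.00 and 9.79 and Treml4 3.13 and 3.46. F13a1, Ms4a6c, Cebpa and Irf8 are thus genes also high in healthy GMP. These genes were chosen after their values were seen, and no test was made between arrays of 1 group.

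Among all other genes tested, those whose values ran closest to the mean of the 10 markers over the 17 arrays were Clec7a (Pearson's r = 0.982), Pilrb1 (0.974), Apoe (0.973), Tgfbi (0.970), Cd300a (0.968) and Apobec1 (0.963). Clec7a, the receptor for fungal beta-glucan also called dectin-1, was 10.45 to 12.62 in the LSK-derived and 10.00 to 10.80 in the GMP-derived arrays and at most 9.04 in healthy GMP. It was 9.60 in DN2-derived array 1, 3.76 to 4.33 in arrays 2 to 5 and 3.38 to 3.64 in healthy DN2 cells. For the mean of C1qa and C1qb the closest were C1qc (0.885), Spic (0.878), Fap (0.862), Shtn1 (0.802), E230029C05Rik (0.772) and Hip1 (0.766). These values describe likeness over arrays that share groups and carry no test.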

How the data were processed

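The data are 17 Affymetrix mouse expression arrays in 5 groups, and group and replicate number come from the sample titles. Per the labels' protocols, biotinylated RNA was made from 300 ng of total RNA by 3' IVT. The authors deposited log2 values per probe set, made with RMA in affy per the submitters' processing notes. The sources used here give no versions and do not say if the arrays were normalized in 1 set. The table has no detection calls, and the number of arrays limits the precision.

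Of 45141 probe sets, 104 controls were left out, 28898 had 1 gene symbol in the platform annotation, 551 had several and 15588 had none and were not named. Of those with 1 symbol, 28689 matched the RefSeq gene table of GRCm38.p6 on Entrez identifier, used for current names and sequences. The probe set with the highest mean stood for each of 17097 genes, and the 11629 genes with a group mean above 3.83 were tested. Differences were fitted with limma's lmFit and eBayes (limma 3.58.1, R 4.3.3) over all 17 arrays with a mean per group, two-sided, with Benjamini-Hochberg adjustment over all genes tested in each of 7 comparisons, and called at an adjusted p under 0.05. Other tables were made in Python 3.11.15. The fit was tested on simulated data. The 10 markers, the 7 pathway lists and the 6 cell type lists were chosen with earlier results of these data known. Named beside the markers were up to 3 genes per pathway list, called genes first, with the largest difference between DN2-derived or LSK-derived and GMP-derived leukemias, and the 6 genes closest to the marker mean and to the mean of C1qa and C1qb. List genes outside this rule were named after their values were seen. Some genes of those lists were not analysed here. Alternatives changed the filter, the probe set, the normalization, the arrays fitted, the spread estimate, the replicate block, a Y-linked covariate and the arrays left out.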

Additional observations from a re-analysis of the deposited data

Results flagged for a closer look

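In 20 sets of 5 leukemia arrays (10 markers in the DN2-derived and GMP-derived groups), 3 held an array far from the others by Dixon's criterion. Chance meets it in about 1 of 20 sets that are independent. These sets share arrays, and DN2-derived array 1 was flagged for both Adgre1 and C1qb, so the count cannot be set against that rate. Adgre1 was 7.60 in DN2-derived array 1 and 3.02 to 3.80 in the other 4, a gap of 0.829 of the range. C1qb was 4.63 in the same array and 2.76 to 3.20 in the others, a gap of 0.762 of the range. Fcgr1 was 6.47 in GMP-derived array 4 and 3.07 to 3.63 in the others, a gap of 0.836 of the range. The second Fcgr1 probe set read 4.07 in GMP-derived array 4 and 3.77 to 3.91 in the others of its group. The causes were not tested.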

How the results depend on the processing

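No marker difference that was called, or at least 1 in size, changed direction under any alternative run. The marker median between LSK-derived and GMP-derived leukemias ran from -0.09 (without LSK-derived arrays 2 and 3) to 1.12 (with the Y-linked covariate), and the median over all genes for DN2-derived against healthy DN2 cells from -0.02 (stricter filter) to 0.05. With the stricter filter, which leaves fewer markers, the marker median was -4.24 for DN2-derived against GMP-derived leukemias. Fitting only the arrays compared gave 5326 genes and 6 markers called between healthy DN2 and GMP (1302 and 2 with all arrays) and 1658 genes and 1 marker between LSK-derived and GMP-derived leukemias (3108 and 2). Without LSK-derived arrays 2 and 3 that comparison gave 1378 genes and 1 marker, and DN2-derived against LSK-derived leukemias 3172 genes (5515). Without DN2-derived arrays 1 and 3, a choice made after seeing the data, 1 marker (Lyz2) was called against healthy DN2 cells and 1 in the interaction (0 and 0). Leaving out 1 array in turn gave 602 to 785 genes and 1 marker between healthy cells, 1236 to 2676 genes and 0 to 1 markers for DN2-derived against healthy DN2 cells, 848 to 3342 genes and 0 to 2 markers for GMP-derived against healthy GMP, 1889 to 3714 genes and 1 to 2 markers for LSK-derived against GMP-derived, and 788 to 1749 genes and 0 to 1 markers for the interaction. It gave 5 to 6 markers for DN2-derived against GMP-derived and 7 for DN2-derived against LSK-derived leukemias. With quantile normalization Cd68 was called between healthy cells (-2.90, adjusted p = 0.0435). Replicate numbers did not pair the samples: of 25 pairs with the same number, 6 correlated above 0.1 (-0.302 to 0.254, median 0.0528). With the replicate block 1 marker in place of 2 was called between GMP-derived leukemias and healthy GMP, since Cd14 was 2.47 (adjusted p = 0.0813). The causes of these changes were not tested, beyond the fewer arrays in a fit. Values near background limit Mrc1, Msr1, C1qa, C1qb and Fcgr1.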
